A study of Mus musculus with 4 samples.

Results

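The TRAV6-5, TRAV6-6 and TRAV6-7 segments and their duplicated copies form a V segment family of the mouse TCRα chain. Its members were taken from the clone tables of splenic CD4 T cells as every TCRα clone whose first listed V segment was TRAV6, TRAV6D or TRAV6N followed by 5, 6 or 7, with TRAV6-7-DV9 included. The rule found 33165 of 189388 TCRα clones under 8 segment names. There were 2 libraries of wild type (WT) and 2 of Tet2/3 DKO mice, which the labels call BR1 and BR2 and which are replicates 1 and 2 here. Per the study's methods, the mice were young and matched in age and sex, C57BL/6 mice were kept in the colony, and Tet2/3 DKO mice, whose strain background is not given in the sources used here, carried a germline deletion of Tet2 and floxed Tet3 that CD4 Cre removes in T cells from the double positive thymocyte stage on, so that Tet2 was absent from every cell and Tet3 from T cells only. Cells of both genotypes were sorted as live CD4+ CD25- TCRβ+ cells that did not bind the αGalCer-Cd1d tetramer, which leaves out iNKT cells and CD25 expressing cells. TCR SMART-seq reads of TCRα numbered 172506 and 216457 in WT against 195046 and 287799 in Tet2/3 DKO, and the family held 30257, 39809, 36316 and 43883 of them. The tables hold TCR chains only, so no other marker of the sorted cells could be read.

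A TCRα chain is made when RAG cuts and joins a TRAV segment to a TRAJ segment in a double positive thymocyte. Joining usually starts with V segments near the TRAJ array and with the TRAJ segments of high number that lie nearest to them, and may be repeated on the same allele with V segments farther away and TRAJ segments of lower number, until a receptor passes positive selection. CDR1 and CDR2 are encoded by the V segment, and CDR3 by the join. TET2 and TET3 oxidise 5-methylcytosine and take part in DNA demethylation.

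In the mouse the TRAV6 copies lie in an array with duplications, whose copies carry a D or an N in their names. RefSeq places all 9 genomic copies on chromosome 14 of GRCm38.p6. From the distal end towards the TRAJ array their order was Trav6d-5, Trav6d-6, Trav6d-7, Trav6n-5, Trav6n-6, Trav6n-7, Trav6-5, Trav6-6 and Trav6-7-dv9. The most distal, Trav6d-5, lies at chr14:52795165-52795633, which is 1425 kb from the gene of the TCRα constant region, Trac. Trav6-6 lies at chr14:53516929-53517366, 703 kb from Trac. The most proximal, Trav6-7-dv9, lies at chr14:53709943-53710419, 510 kb from Trac, and its DV9 name marks a V segment that can also be joined in the TCRδ locus, which lies inside the TCRα locus.

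The copies fall into 3 groups, named here the 5, 6 and 7 copies after the last digit of the segment. All sequences below are from the deposited clones, 5′ to 3′ on the coding strand, and bases are counted from 1 at the first base of framework region 1 (FR1) of the segment. The most abundant sequence from FR1 to FR3 had 267 bases in the 5 and 7 copies and 273 bases in the 6 copies, with no stop codon in any. CDR1 tells the groups apart and is shown for that reason:
TRAV6-5: accaaacagtacccaacc
TRAV6-6: gccacaagcatagcttaccctaat
TRAV6N-6: gccacaagcataggttaccctaat
TRAV6-7-DV9: gcctcagggtacccaacc
TRAV6D-7: gcctcagggtacccagct

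TRAV6-6 and TRAV6N-6 differed at 5 of their bases from FR1 to FR3, by C29A, C36T, G49A, C92G and A214G, where the first letter is the base of TRAV6-6. TRAV6-7-DV9 and TRAV6D-7 also differed at 5 bases, by A94G, C96T, G129T, C136T and T234C, where the first letter is the base of TRAV6-7-DV9. TRAV6-5 and TRAV6D-5 differed at 11 bases. TRAV6-5 and TRAV6N-5 did not differ from FR1 to FR3. They were told apart only at the end of the segment, where the commonest first 12 bases of the CDR3, with codon 4 in capitals, were:
TRAV6-5: tgtgctctgAGT
TRAV6N-5: tgtgctctgGGT
TRAV6D-5: tgtgttctgGGT
TRAV6-6: tgtgctctgGGT
TRAV6N-6: tgcgctctgAGT
TRAV6-7-DV9: tgtgctctgAGT
TRAV6D-7: tgtgctctgGGT

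Some names therefore stand for more than a single genomic copy. Every clone named TRAV6-6, 11976 in all, listed TRAV6D-6 beside it with the same score, so that these copies could not be separated and the name TRAV6-6 here covers both. Another 1869 clones named TRAV6-5, with 6948 of its 25403 reads, also listed TRAV6N-5, and ties in score held at most 0.0165% of the TRAV6-5 reads of a library. The name TRAV6N-7 came first in 17 clones with 51 reads, and its most abundant sequence was identical to that of TRAV6-7-DV9 from FR1 to FR3. Of TRAV6D-7 clones, 5293 of 5425 also listed TRAV6-7-DV9, and ties in score held at most 0.151% of the TRAV6D-7 reads of a library. No separate use of TRAV6N-7 could be read from so few reads, and it is left out of most comparisons below, which use the other 7 names.

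The family held 15.2% to 18.6% of the TCRα reads of a library, and no difference between genotypes beyond the spread of the libraries was seen. It held 17.5% and 18.4% of TCRα reads in WT and 18.6% and 15.2% in Tet2/3 DKO. The 95% Wilson intervals of these shares, which cover counting error only, ran from 17.4% to 17.7% in WT replicate 1 and from 15.1% to 15.4% in Tet2/3 DKO replicate 2. The means were 17.97% ± 0.60 (SD, n = 2) and 16.9% ± 2.38 (SD, n = 2), and the exact two-sided permutation test over the 6 assignments of genotype gave p = 1, where 0.33 is the smallest p that 2 against 2 libraries allow. Tet2/3 DKO replicate 2 was lower than the other 3, and without it the difference turned to 0.65 percentage points higher in Tet2/3 DKO. The rest of the TRAV6 family, TRAV6-1 to TRAV6-4 and copies, held 3.19% to 3.55% of the reads of a library.

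Use was uneven between the copies. TRAV6-6, together with the TRAV6D-6 that could not be separated from it, held 7.29% and 6.63% of TCRα reads in WT and 7.59% and 4.90% in Tet2/3 DKO. It ranked 2 among the 60 V segments with at least 500 reads in every library, where the median segment held 1.00%. TRAV6D-7 ranked 6, with 2.61% and 3.34% in the WT libraries and 2.97% and 2.76% in those of Tet2/3 DKO. TRAV6-5 ranked 7, with 2.96% and 2.80% in WT, while the Tet2/3 DKO libraries had 2.94% and 2.96%. TRAV6-7-DV9 held 2.03% and 2.69% for WT and 2.50% and 2.03% for Tet2/3 DKO. TRAV6D-7 and TRAV6-5 overlapped over the 4 libraries, so their order is not settled, and TRAV6-7-DV9 was below both in each library. TRAV6N-6 followed with 1.18% to 1.44% and TRAV6N-5 with 0.867% to 1.03%, and the least used was TRAV6D-5 with 0.357% to 0.569%. These last 3 did not overlap with each other in any library.

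None of the 8 names passed an adjusted p of 0.05 between genotypes in edgeR's quasi-likelihood test over 101 V segments, of which 0% passed. None of the 8 passed an unadjusted p of 0.05 either, and DESeq2 called 0 as well. The log2 fold change of Tet2/3 DKO over WT was 0.03 with an SE of 0.15 for TRAV6-5 and -0.16 with an SE of 0.22 for TRAV6-6. That of TRAV6-6 was -0.51 without Tet2/3 DKO replicate 1 and turned to 0.13 without Tet2/3 DKO replicate 2. The log2 fold change was 0.17 with an SE of 0.17 for TRAV6N-5 and -0.19 with an SE of 0.16 for TRAV6N-6. That of TRAV6N-6 was -0.046 with each clone counted once and -0.025 without the 10 most abundant clones. Leaving out each library in turn gave -0.27 to -0.11 for TRAV6N-6. The adjusted p of all 8 in edgeR was 0.972. TRAV6D-5 gave the largest value among the copies other than TRAV6N-7, with a log2 fold change of -0.35 and an SE of 0.22. It was -0.19 without WT replicate 2 or without Tet2/3 DKO replicate 2, -0.53 without Tet2/3 DKO replicate 1, and -0.17 with each clone counted once. Both Tet2/3 DKO libraries lay below both WT libraries for TRAV6D-5 and TRAV6N-6, 2 of 7 names, where 16.7% of the 60 V segments did so. Both lay above for TRAV6N-5, where 6.67% of the 60 did so.

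**Figure D1:**
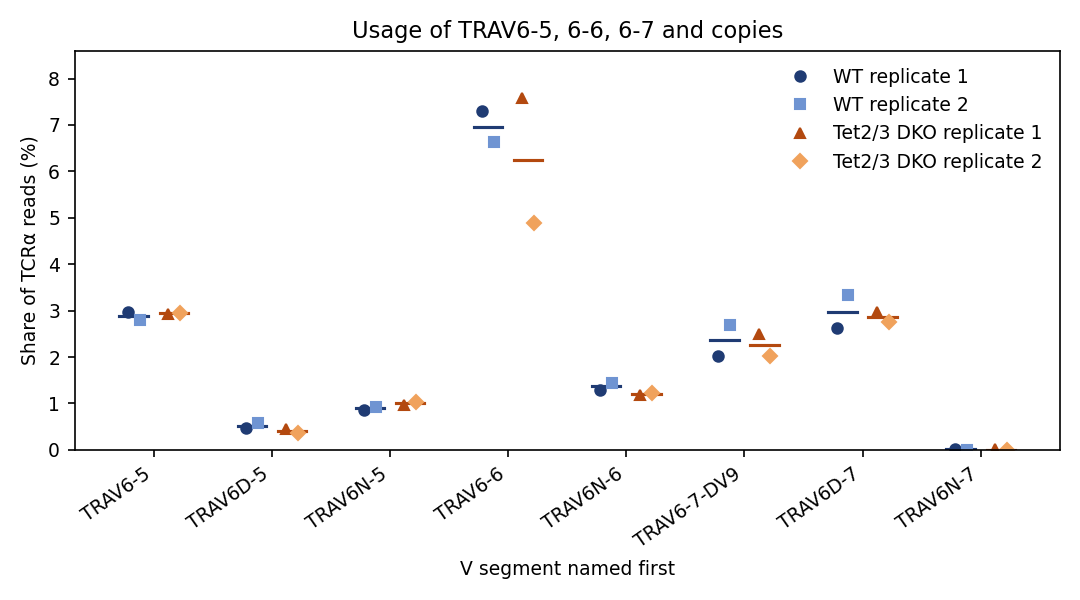
Share of all TCRα reads (vertical axis, percent) held by each V segment name (horizontal axis) in the 4 libraries, with a symbol for each library and a bar at the mean of each genotype. TRAV6-6, which also covers TRAV6D-6, lies between 4.90% and 7.59%, above every other copy, and TRAV6N-7 lies near 0.

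In their TRAJ partners the copies differed from each other by more than the genotypes did. The mean TRAJ number, weighted by reads, was 42.7 ± 0.76 (SD, n = 4) for TRAV6-7-DV9, the copy nearest to the TRAJ array. It was 29.8 ± 0.55 for TRAV6-6, 28.3 ± 0.61 for TRAV6-5, 28.1 ± 1.18 for TRAV6D-5, 24.5 ± 0.75 for TRAV6D-7, 22.0 ± 0.90 for TRAV6N-5 and 21.2 ± 1.61 for TRAV6N-6 (SD, n = 4 for each). The median over the 60 V segments was 26.1. TRAV6-7-DV9 was higher than each of the other 6 copies in 4 of 4 libraries, by 12.9 TRAJ positions over TRAV6-6 and by 21.5 over TRAV6N-6. Each of these gave p = 0.13 in the exact sign-flip permutation test over libraries, the smallest p that 4 libraries allow, and an adjusted value of 0.136 over the 25 contrasts within libraries that were computed. TRAV6-6 lay above TRAV6-5 and TRAV6D-5 in each library. TRAV6D-5 was above TRAV6-5 in 2 of 4 libraries and TRAV6N-5 above TRAV6N-6 in 2 of 4, so that neither of these pairs had a fixed order.

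The order of these means did not follow the map from end to end. The most distal copy, TRAV6D-5, had a mean of 29.4 and 27.4 in WT against 28.8 and 26.8 in Tet2/3 DKO. TRAV6N-5, which lies closer to the TRAJ array at 1115 kb from Trac, had 21.5 and 21.2 in the WT libraries and 23.2 and 22.2 in those of Tet2/3 DKO. TRAV6D-5 was thus higher than TRAV6N-5 in 4 of 4 libraries, by 6.06 ± 1.38 (SD, n = 4; exact sign-flip permutation p = 0.13). For TRAV6-6 the mean covers a proximal and a distal copy with tied scores, and the part of each is unknown.

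The pair TRAV6-7-DV9 and TRAV6D-7 shows the contrast between near-identical sequences at different places. TRAJ48 and the TRAJ segments of higher number held 41.0% and 42.1% of TRAV6-7-DV9 reads in WT and 39.5% and 47.0% in Tet2/3 DKO. The same segments held 4.54% and 5.77% of TRAV6D-7 reads in WT and 3.26% and 2.27% in Tet2/3 DKO. At the other end, TRAJ20 and the segments of lower number held 1.62% to 5.37% of TRAV6-7-DV9 reads and 31.6% to 37.5% of TRAV6D-7 reads. These ranges lie far apart in every library. In joins that were out of frame or held a stop codon, which encode no receptor, the mean TRAJ number was 40.9 ± 1.73 for TRAV6-7-DV9 and 25.2 ± 1.30 for TRAV6D-7 (SD, n = 4), a difference of 15.7 ± 2.26 with the same direction in 4 of 4 libraries (exact sign-flip permutation p = 0.13). In all joins the difference was 18.2 ± 0.085 (SD, n = 4; exact sign-flip permutation p = 0.13).

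**Figure D2:**
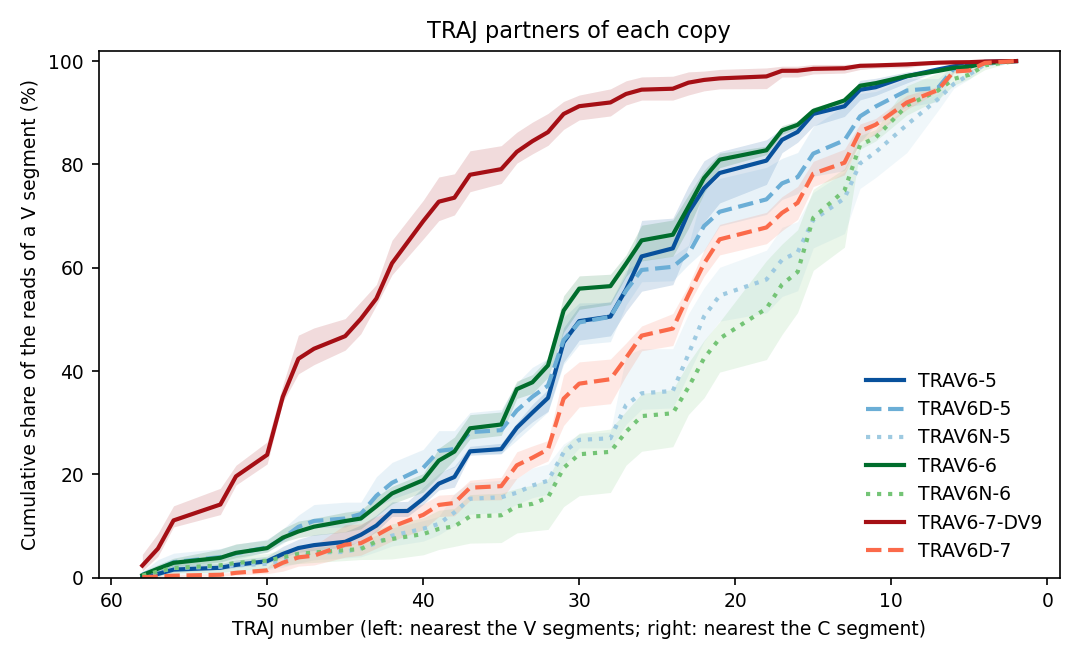
Cumulative share of the reads of each V segment (vertical axis, percent) over the TRAJ segments, read from the end nearest the V segments on the left to the end nearest the constant region on the right (horizontal axis, TRAJ number). Lines are means of 4 libraries and bands span the lowest and highest library; the line of TRAV6-7-DV9 rises first, and those of TRAV6N-5 and TRAV6N-6 last.

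TRAJ31 led by mean share in 4 of 7 names and also in all other V segments pooled, where it held a mean of 7.07%. TRAJ49 led in TRAV6-7-DV9 by its mean of 11.2%, with 11.0% and 11.9% of its reads in WT and 10.2% and 11.8% in Tet2/3 DKO, and TRAJ40 followed at a mean of 8.14% with 12.6% in Tet2/3 DKO replicate 2. The means of TRAJ31 were 10.6% in TRAV6-6, where it led in each library, 10.8% in TRAV6-5, 8.81% in TRAV6D-5 and 9.81% in TRAV6D-7. It led in 3 of 4 libraries in TRAV6-5 and in 2 of 4 in TRAV6D-5 and in TRAV6D-7. In TRAV6N-6, TRAJ15 had the highest mean, 10.5%, with 16.6% in WT replicate 2 and 7.81% to 9.31% in the other libraries, but it led in only 2 of 4 libraries: TRAJ18 with 13.17% led in WT replicate 1 and TRAJ12 with 19.5% in Tet2/3 DKO replicate 2. No partner led in TRAV6N-5 across libraries. TRAJ22 had the highest mean there, 7.32%, and TRAJ23 a mean of 7.11%, yet TRAJ23 was above TRAJ22 in 3 of 4 libraries, TRAJ7 led in WT replicate 2 with 10.9% and TRAJ27 in Tet2/3 DKO replicate 1 with 16.0%. Single clones could move such a share: TRAJ26 held 3.64%, 3.80% and 3.93% of TRAV6-5 reads in both WT libraries and Tet2/3 DKO replicate 1, and 14.3% in Tet2/3 DKO replicate 2, where 10.8% of TRAV6-5 reads came from 1 clone.

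Over all copies together, 44 TRAJ segments were found. The 5 with the largest mean share were TRAJ31 with 8.91%, TRAJ23 with 5.25%, TRAJ22 with 4.91%, TRAJ34 with 4.68% and TRAJ27 with 4.17%. TRAJ31 held 10.03% and 9.58% of the family's reads in WT and 7.97% and 8.05% in Tet2/3 DKO, so that both Tet2/3 DKO libraries were lower than both WT libraries. Its log2 fold change was -0.29 with an SE of 0.04 and an adjusted p of 0.0135 in edgeR's quasi-likelihood test. It was the single partner of the 43 tested that passed, which is 2.33% of them. At an unadjusted p of 0.05, 3 partners passed. Among clones of all other V segments TRAJ31 held 7.38% and 7.001% in WT, while the Tet2/3 DKO libraries had 6.97% and 6.92%, and whether the change in the family differed from that was not tested. The call on TRAJ31 was lost when each clone was counted once, with a log2 fold change of -0.14 and an adjusted p of 0.263, and also, with log2 fold changes of -0.32 to -0.28, with DESeq2, with the replicate number as a block, or without either Tet2/3 DKO library.

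By genotype, the mean TRAJ number of the whole family was 29.43 and 29.50 for WT and 29.33 and 28.92 for Tet2/3 DKO. The groups did not overlap, at a difference of -0.34 TRAJ positions (exact permutation p = 0.33, the smallest possible, and 0.5 after adjustment over 6 measures). They did overlap with each clone counted once, at a difference of -0.46, without the 10 most abundant clones of each library, at -0.27, and with tied V hits left out, at -0.24. Of 7 names, TRAV6N-5 alone did not overlap and was higher in Tet2/3 DKO, where 10% of the 60 V segments were; none was lower without overlap, where 25% of the 60 were. With each clone counted once TRAV6N-5 had 21.87 and 22.43 for WT and 22.64 and 21.32 for Tet2/3 DKO, which overlapped. Against all other V segments, with a mean of 29.0, the family was higher in 3 of 4 libraries (exact sign-flip permutation p = 0.25). Without TRAV6-7-DV9 its mean was 27.2 and lower than that of other V segments in 4 of 4 libraries (exact sign-flip permutation p = 0.13).

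The CDR3s of the family were slightly longer than those of other TCRα chains. Over in-frame clones without a stop codon the mean length, weighted by reads, was 13.61 and 13.59 amino acids in WT against 13.69 and 13.78 in Tet2/3 DKO. For all other V segments it was 13.32 and 13.32 in WT against 13.34 and 13.40 in Tet2/3 DKO. The family was longer in 4 of 4 libraries, by 0.32 ± 0.05 amino acids (SD, n = 4; exact sign-flip permutation p = 0.13). The difference between genotypes was 0.13 amino acids, with no overlap and an exact permutation p of 0.33, the smallest possible. With each clone counted once it was 0.05. Both Tet2/3 DKO libraries lay above both WT libraries in TRAV6-5, TRAV6-7-DV9 and TRAV6D-7, 3 of 7 names, and this was so for 42.4% of the 59 V segments with in-frame clones, so the count is near the background. None of the 7 names lay below without overlap, where 5.08% of the 59 did so.

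TRAV6-7-DV9 had the longest CDR3s of the family, with 13.99 and 13.90 amino acids in WT and 14.15 and 14.08 in Tet2/3 DKO, and ranked 4 among the 59 V segments. TRAV6D-7, with nearly the same V sequence, had 13.55 and 13.47 in the WT libraries and 13.67 and 13.75 in those of Tet2/3 DKO. The difference was 0.42 ± 0.07 amino acids, higher in 4 of 4 libraries (exact sign-flip permutation p = 0.13). The other copies had means from 13.38 for TRAV6D-5 to 13.71 for TRAV6-6. Within TRAV6-5, clones that also listed TRAV6N-5 had a mean of 12.9 and those listing TRAV6-5 alone 13.7.

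**Figure D3:**
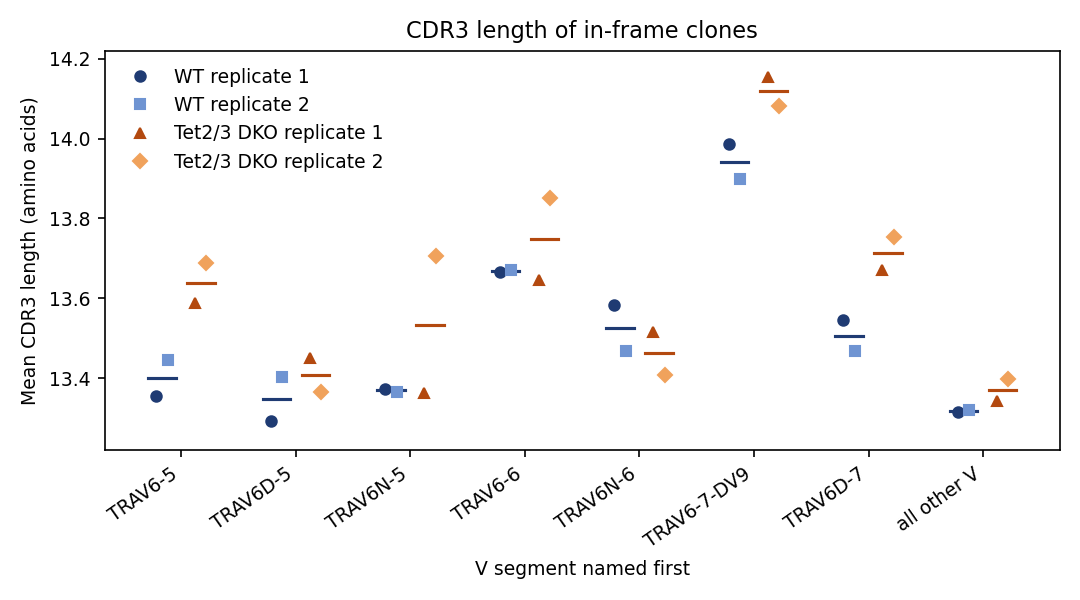
Mean CDR3 length in amino acids (vertical axis, weighted by reads, not from 0) of in-frame clones by V segment name (horizontal axis), with a symbol for each library and a bar at each genotype's mean. TRAV6-7-DV9 lies between 13.90 and 14.15, above all other V segments pooled, which lie between 13.32 and 13.40.

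The start of the CDR3 split the copies as the commonest codon 4 shown above does. Since TRAV6-5 and TRAV6N-5 were told apart only there, their values restate how the names were given. Serine stood behind Cys-Ala-Leu in 67.3% of the in-frame reads of TRAV6-5, 65.2% of TRAV6N-6 and 74.1% of TRAV6-7-DV9. Glycine stood there in 86.9% of TRAV6-6, 82.4% of TRAV6D-7 and 81.1% of TRAV6N-5 reads, and 82.4% of TRAV6D-5 reads began with Cys-Val-Leu-Gly. Arginine was the next most common in the copies with serine, at 11.7% to 14.99%, and alanine in those with glycine, at 5.23% to 6.94%.

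In-frame joins were less common in the 5 copies than in the others. Of reads with a CDR3, the family held 87.1% and 87.9% in in-frame clones without a stop codon in WT and 87.3% and 88.2% in Tet2/3 DKO, against 89.5% to 90.1% for all other V segments. The family was lower in 4 of 4 libraries, at a difference of -2.33 ± 0.50 percentage points (SD, n = 4; exact sign-flip permutation p = 0.13). The 5 copies held 78.9% and 79.7% in WT, while the Tet2/3 DKO libraries had 82.2% and 81.7%. The 6 and 7 copies held 88.9% to 90.9%. The 5 copies were lower than the 6 and 7 copies in 4 of 4 libraries, at a difference of -9.46 ± 2.04 percentage points (SD, n = 4; exact sign-flip permutation p = 0.13). With each clone counted once the difference was -8.15 ± 1.90 percentage points, also with the same direction in 4 of 4 libraries. Pooled, the 6 and 7 copies were higher than all other V segments in 2 of 4 libraries (exact sign-flip permutation p = 0.75). Taken apart, the 7 copies lay above all other V segments in each library and the 6 copies below them.

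These shares leave out reads for which no CDR3 was covered, most of which lack part of the V exon, as described below. An alternative chosen after seeing the data added the joins read behind that gap in the family. No such joins were added for other V segments. The in-frame share of the 6 and 7 copies pooled was then 87.1% and 87.8% in WT against 86.5% and 89.3% in Tet2/3 DKO. This was lower than all other V segments in 4 of 4 libraries, at a difference of -2.28 ± 1.06 percentage points (SD, n = 4; exact sign-flip permutation p = 0.13). Only the 6 copies were lower: they held 84.5% to 87.0%, below all other V segments in each library. The 7 copies, in which no read had the gap, held 89.7% to 92.2%, above all other V segments in each library. The family was lower than all other V segments in 4 of 4 libraries, at a difference of -4.14 ± 0.83 points. The 5 copies were lower than the 6 and 7 copies at a difference of -7.43 ± 1.59 points (SD, n = 4; exact sign-flip permutation p = 0.13 for each).

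All 3 copies of the 5 group shared this. The in-frame share was 80.0% ± 2.63 in TRAV6-5, 81.5% ± 1.73 in TRAV6D-5 and 82.2% ± 1.32 in TRAV6N-5 (SD, n = 4). They ranked 52, 49 and 47 from the top among 59 V segments, whose median was 89.7%. Out-of-frame joins made up 17.5% to 19.8% of the reads of these copies on average, and 8.39% to 11.0% in the other copies. Stop codons in an otherwise in-frame CDR3 made up at most 0.266% on average in the 7 names. The largest out-of-frame or stopped clone held 91 reads in TRAV6-5, 61 in TRAV6N-5 and 12 in TRAV6D-5. Non-productive clones of the 7 names held 3.20 to 3.77 reads on average and in-frame clones 3.94 to 5.04.

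Between genotypes the in-frame share of the family overlapped, at a difference of 0.24 percentage points (exact permutation p = 0.667, 2 libraries a group). Taken over all reads of the family, those without a CDR3 included, it was 80.1% in WT and 82.3% in Tet2/3 DKO on average, a difference of 2.27 points that also overlapped. TRAV6-5 held 77.4% and 78.0% for WT and 82.6% and 81.9% for Tet2/3 DKO, and TRAV6N-6 held 88.9% and 89.3% in WT against 90.7% and 91.4% in Tet2/3 DKO. These were the 2 of 7 names in which both Tet2/3 DKO libraries lay above both WT libraries, where 15.3% of the 59 V segments did so. With each clone counted once, TRAV6-5 held 76.7% and 77.3% for WT and 78.9% and 76.8% for Tet2/3 DKO, so that the genotypes overlapped, and the family's difference was 0.78 percentage points with no overlap. An in-frame TRAV6-5 clone held 384 reads in Tet2/3 DKO replicate 1 and another 922 in Tet2/3 DKO replicate 2. None of the 7 names lay below without overlap, where 22% of the 59 did so.

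Reads for which no CDR3 was covered were frequent in the 6 copies. Most such reads of the family, all in the 5 and 6 copies, shared a single gap in the V exon. Reads without a CDR3 held 9.04% and 7.96% of the family's reads in WT and 7.27% and 5.06% in Tet2/3 DKO. For all other V segments the shares were 2.21%, 2.05%, 1.78% and 1.45% in the same order. The family was higher in 4 of 4 libraries, by 5.46 ± 1.36 percentage points (SD, n = 4; exact sign-flip permutation p = 0.13). The 6 copies held 11.2% to 17.1% and the 5 copies 1.73% to 3.00%. The 7 copies held 0.290% to 0.544%, below all other V segments in each library. Among the 60 V segments TRAV6-6 ranked 3 for this share, TRAV6-7-DV9 37 and TRAV6D-7 55, and the other names 9 to 16. With tied V hits left out, the difference between the family and all other V segments turned to -0.96 points. This step removed all of TRAV6-6 and also took clones from the other V segments. The part of each in the turn was not tested. Of 10762 such reads in the family, 9985 or 92.8% lacked the same 124 bases, in 2108 of 2524 such clones. As placed here, the stretch starts with GT and ends with AG, the bases at the ends of most introns. The base before it and its last base are both G, so a gap shifted by a single base leaves the same clone. In the sequence of TRAV6-6 from FR1 to FR3 it is bases 111 to 234, shown in capitals:
TRAV6-6: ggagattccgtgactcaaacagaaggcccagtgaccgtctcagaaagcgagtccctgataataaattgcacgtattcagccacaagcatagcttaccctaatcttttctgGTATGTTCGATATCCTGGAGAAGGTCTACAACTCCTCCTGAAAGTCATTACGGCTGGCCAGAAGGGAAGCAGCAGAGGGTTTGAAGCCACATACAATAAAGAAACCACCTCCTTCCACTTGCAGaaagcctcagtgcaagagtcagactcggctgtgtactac

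The gap removes the part of the V exon from near the start of FR2 to far into FR3, with all of CDR2. Since 124 is not a multiple of 3, it shifts the reading frame of what follows. The most abundant clone with the gap held 72 reads in WT replicate 1 and joined TRAV6-6 to TRAJ31. It is shown whole, with 8 bases on each side of the join in capitals:
TRAV6-6 with TRAJ31: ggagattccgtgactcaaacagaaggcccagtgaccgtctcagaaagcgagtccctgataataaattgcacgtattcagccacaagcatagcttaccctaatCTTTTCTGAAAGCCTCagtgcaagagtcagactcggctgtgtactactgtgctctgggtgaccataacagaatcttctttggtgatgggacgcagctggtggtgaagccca

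The gap differed widely between the copies. In TRAV6-6 it was found in 18.8% and 18.1% of reads in WT and 14.6% and 12.3% in Tet2/3 DKO, in 1894 clones. In TRAV6N-6 it was found in 3.21% and 4.07% in the WT libraries and 2.56% and 3.80% in those of Tet2/3 DKO, in 75 clones. TRAV6-6 was higher than TRAV6N-6 in 4 of 4 libraries, by 12.6 ± 2.99 percentage points for all deletions together (SD, n = 4; exact sign-flip permutation p = 0.13), although the missing stretch of the 2 copies differs by a single base, A214G, and 4 further differences lie before it. In the 5 copies the same stretch, bases 105 to 228, was missing in 1.94% ± 0.83 of TRAV6-5, 2.09% ± 1.12 of TRAV6D-5 and 1.96% ± 0.90 of TRAV6N-5 reads (SD, n = 4), and these 3 overlapped. No read of TRAV6-7-DV9 or TRAV6D-7 carried it, 0 of 20039 and 0 of 25483, which allows a share of up to 0.0150% and 0.0118%.

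The ends of the stretch are shown for this contrast, with its 2 outermost bases in capitals. At the start all copies held GT:
TRAV6-5: aaccctgttctgGTatgtgcagtatcccgg
TRAV6-6: taatcttttctgGTatgttcgatatcctgg
TRAV6N-6: taatcttttctgGTatgttcgatatcctgg
TRAV6-7-DV9: aaccctgttctgGTatgtgcagtatcccgg
TRAV6D-7: agctctgttctgGTatgtgcagtatcccgg
At the end the 5 and 6 copies held AG, and the 7 copies GG:
TRAV6-5: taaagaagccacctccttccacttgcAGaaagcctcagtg
TRAV6D-5: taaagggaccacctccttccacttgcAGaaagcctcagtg
TRAV6-6: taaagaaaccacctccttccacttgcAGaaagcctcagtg
TRAV6N-6: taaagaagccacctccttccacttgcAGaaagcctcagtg
TRAV6-7-DV9: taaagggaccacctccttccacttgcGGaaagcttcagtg
TRAV6D-7: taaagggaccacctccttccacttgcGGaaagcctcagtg

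Counted from TRAV6-5, this difference is A227G. The copies with the gap were thus those with AG at its end, and those without it had GG there. The stretch differs at other bases too. Over it, TRAV6-7-DV9 and TRAV6D-7 each differed from TRAV6-6 at 29 bases, and TRAV6-5 differed from TRAV6-6 at 20. Which of these bases bear on the gap was not tested. The start shown for TRAV6-5 and TRAV6-7-DV9 is the same over all 30 bases. All other deletions of at least 20 bases were rare: the 124-base gap held 9985 of the 10040 deleted reads of the family. No deletion other than the 124-base one was present in all 4 libraries. As placed here, 99.6% of the deleted reads ran from a GT to an AG. This share mostly restates the 124-base gap, and placements from GT to AG were preferred where several were equal.

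**Figure D4:**
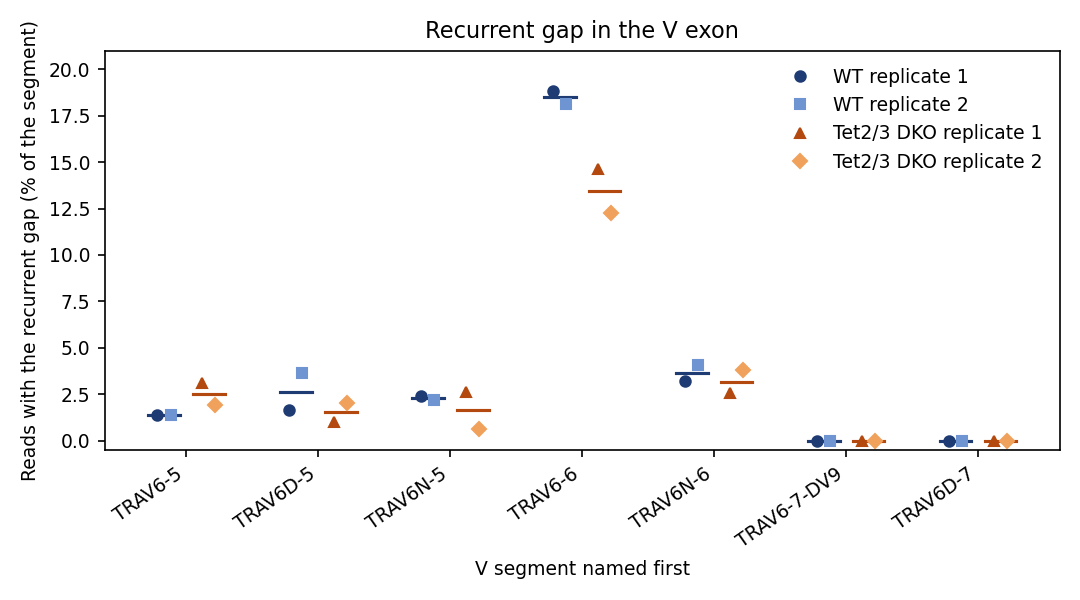
Share of the reads of each V segment name that lack the recurrent 124 bases (vertical axis, percent), with a symbol for each library and a bar at each genotype's mean. TRAV6-6 lies between 12.3% and 18.8%, TRAV6N-6 and the 5 copies below 4.1%, and TRAV6-7-DV9 and TRAV6D-7 at 0.

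By genotype, the share of the family's reads with a deletion was 8.50% and 7.30% in WT against 6.83% and 4.75% in Tet2/3 DKO, a difference of -2.11 percentage points with no overlap (exact permutation p = 0.33, the smallest possible). The share without a CDR3 differed by -2.33 points, also with p = 0.33 in the exact permutation test and 0.5 after adjustment. With tied V hits left out, which removes all of TRAV6-6, that difference was -0.16 points and the genotypes overlapped. Both Tet2/3 DKO libraries lay below both WT libraries for the share without a CDR3 in TRAV6D-5, TRAV6-6, TRAV6N-6 and TRAV6-7-DV9, 4 of 7 names, where 26.7% of the 60 V segments did so. They lay above in TRAV6-5, where 11.7% did so. The gap itself differed in opposite directions between the copies: in TRAV6-5 it was 1.37% and 1.35% for WT and 3.12% and 1.89% for Tet2/3 DKO, while the difference of the TRAV6-6 means was -5.04 percentage points. With the clones of TRAV6-5 and TRAV6N-5 pooled, the genotypes overlapped. The share without a CDR3 among all other V segments was lower in Tet2/3 DKO too, as given above, and its part in the difference was not tested.

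The gap was more common in transcripts whose V-J join cannot encode a receptor. In clones with the gap, the CDR3 was read behind the join of the 6 copies from the position where FR3 ends, and 98.9% to 99.8% of these clones began with a cysteine codon. The join was in frame, without a stop codon, in 61.3% ± 2.69 of the reads with the gap and in 89.2% ± 0.59 of the reads without it (SD, n = 4), lower in 4 of 4 libraries (exact sign-flip permutation p = 0.13). Put the other way, the gap was found in 12.3% and 11.0% of the reads with an in-frame join in WT against 9.16% and 7.85% in Tet2/3 DKO. Among reads with a join out of frame or with a stop codon, it was found in 40.4% and 42.1% in WT against 34.6% and 29.5% in Tet2/3 DKO. The difference was 26.6 ± 4.05 percentage points, with the same direction in 4 of 4 libraries (exact sign-flip permutation p = 0.13). In both kinds of join the Tet2/3 DKO libraries lay below the WT libraries, at differences of -3.14 and -9.23 percentage points (exact permutation p = 0.33 for each, the smallest possible).

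The same held in the 5 copies, with fewer reads. Their joins behind the gap were in frame in 61.3% ± 6.73 of reads against 80.6% ± 1.60 in intact clones (SD, n = 4), lower in 4 of 4 libraries (exact sign-flip permutation p = 0.13), from 30 to 39 clones a library. Some gapped clones had an intact partner. In the 6 copies, 19.5% to 27.5% of the gapped clones of a library shared TRAJ segment and CDR3 with an intact clone of the same library, against 14.1% to 18.8% with intact clones of another library.

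**Figure D5:**
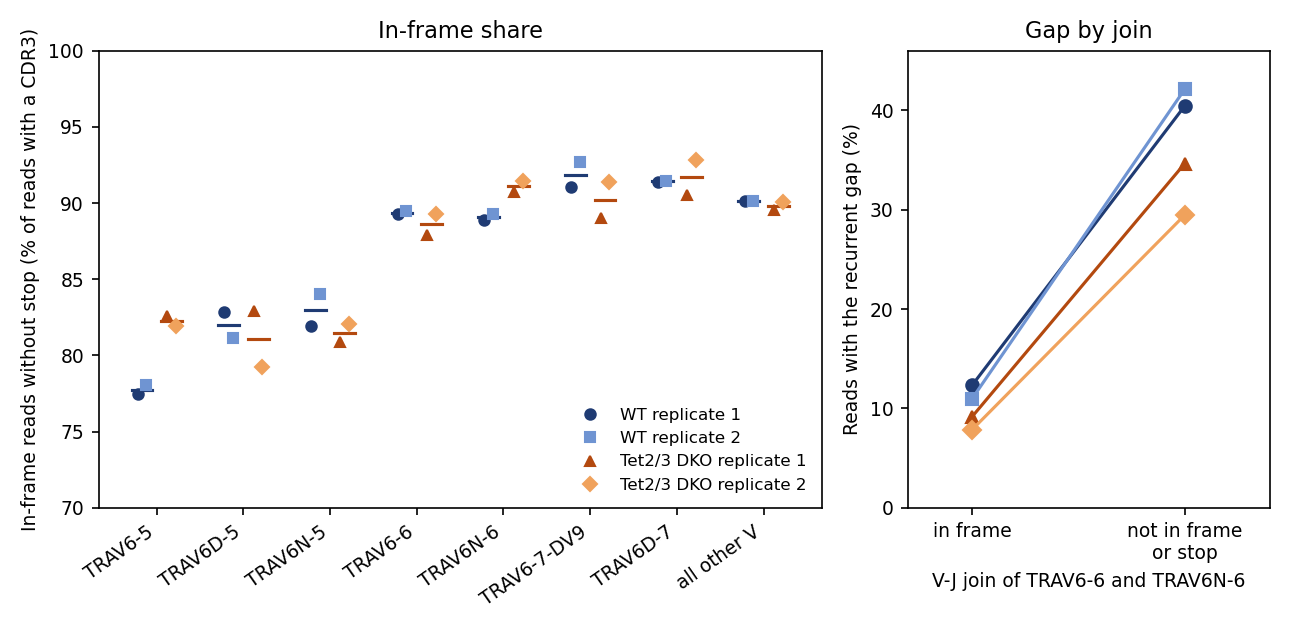
Left, in-frame reads without a stop codon as percent of reads with a CDR3 (vertical axis from 70) by V segment name; right, percent of reads of TRAV6-6 and TRAV6N-6 with the 124-base gap for in-frame joins and for joins out of frame or with a stop codon. Symbols are libraries, bars are genotype means and lines join the values of a library; the 5 copies lie between 77.4% and 84.1% on the left, and all 4 lines rise on the right.

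Most TCRα combinations were found in a single library, in the family and among all other V segments alike. The TCRα chains were not paired with TCRβ chains. Clones of a single read made up 25.3% to 26.4% of the family's clones in a library and 25.9% to 26.9% of the others. The part of sampling in this was not tested. Of 15112 combinations of V segment, TRAJ segment and CDR3 amino acid sequence in the family, 11979 were found in 1 library. Among all other V segments these were 69471 of 84314. In the family 435, or 2.88%, were found in all 4 libraries, against 2.26% among all other V segments. These 435 held 22.3% of the family's in-frame reads, against 21.3% for such combinations of all other V segments. By copy, 4.73% of the combinations of TRAV6-6 and 3.16% of those of TRAV6D-7 were in all 4 libraries, and 0.511% of those of TRAV6D-5. The copies differ in reads, and the part of depth in these shares was not tested. The mean CDR3 length was 13.8 amino acids for combinations in 1 library and 13.5 for those in all 4.

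The 5 combinations in all 4 libraries with the most reads were led by TRAV6-6 joined to TRAJ30, with 156 and 124 reads in WT and 117 and 87 in Tet2/3 DKO, under 5 nucleotide sequences. TRAV6-6 with TRAJ34 had 73 and 104 reads in WT and 87 and 126 in Tet2/3 DKO, under 6 sequences. TRAV6-6 with TRAJ22 had 52 and 54 in the WT libraries and 139 and 118 in those of Tet2/3 DKO, under 7. TRAV6-6 with TRAJ39 had 155 and 121 in WT, while the Tet2/3 DKO libraries had 63 and 26, under 4. TRAV6-7-DV9 with TRAJ40 was of another kind, with 13 and 13 reads in WT, 31 in Tet2/3 DKO replicate 1 and 357 in Tet2/3 DKO replicate 2. The commonest CDR3 nucleotide sequence of each is shown because these combinations were found in every library. That of TRAJ40 itself was in 3 libraries and the others in 4:
TRAV6-6 with TRAJ30: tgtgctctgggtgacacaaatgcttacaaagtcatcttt
TRAV6-6 with TRAJ34: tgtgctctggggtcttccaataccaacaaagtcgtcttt
TRAV6-6 with TRAJ22: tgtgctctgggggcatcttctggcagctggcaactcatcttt
TRAV6-6 with TRAJ39: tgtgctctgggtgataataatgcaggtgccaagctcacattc
TRAV6-7-DV9 with TRAJ40: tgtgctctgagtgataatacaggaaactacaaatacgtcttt

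The most abundant clone of the family differed in every library. It was TRAV6-6 with TRAJ26 in WT replicate 1, with 323 reads or 0.187% of TCRα reads. It was TRAV6-7-DV9 with TRAJ42 in WT replicate 2, with 327 reads or 0.151%. In Tet2/3 DKO replicate 1 it was TRAV6-5 with TRAJ17, with 384 reads or 0.197%, and in Tet2/3 DKO replicate 2 TRAV6-5 with TRAJ26, with 922 reads or 0.320%. The first of these had the same CDR3 nucleotide sequence in Tet2/3 DKO replicate 1 and 2, with 14 and 12 reads, and the other 3 were found in a single library:
WT replicate 1, TRAV6-6 with TRAJ26: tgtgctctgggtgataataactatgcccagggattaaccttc
WT replicate 2, TRAV6-7-DV9 with TRAJ42: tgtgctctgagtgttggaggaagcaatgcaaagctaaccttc
Tet2/3 DKO replicate 1, TRAV6-5 with TRAJ17: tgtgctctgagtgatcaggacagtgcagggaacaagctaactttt
Tet2/3 DKO replicate 2, TRAV6-5 with TRAJ26: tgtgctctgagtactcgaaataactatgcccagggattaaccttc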

How the data were processed

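TCR SMART-seq, a 5′ RACE method, was run by the study on RNA of sorted splenic CD4 T cells. Per the labels, the tools bcl2fastq 2.20.0 and fastp 0.21.0 and the build mm10 were named, and clones were assembled with MiXCR. For every library the authors deposited a clone table holding a read count per clone and its fraction of the library, and the fraction served as a check on the count. No molecular identifiers were counted, so that intervals cover counting error only. TCRβ tables were not used here. The family members and the lists were chosen with earlier results of these data known.

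The first listed V and TRAJ segment of a clone was used, without its allele. Named in the text are all member V segments, the 5 TRAJ partners with the largest mean share and any past the threshold, the most abundant member clone of each library, the 5 V-J-CDR3 combinations with the most reads among those in all 4 libraries, and the leading deletion of each copy. TRAJ partners that lead in a copy, or were moved by a clone, were named after their values were seen. Values per library were compared by exact permutation tests. Reads per segment were tested with edgeR 4.0.16 (quasi-likelihood, total reads as library size, at least 10 reads per segment, Benjamini-Hochberg adjustment, threshold 0.05), with DESeq2 1.42.0 as an alternative. A deletion was called against the most abundant intact clone of the segment of at least 310 bases. At least 20 bases had to be missing between a matching start of at least 20 bases and a matching block of 12. Where several placements of a gap left the same clone, a placement from GT to AG was preferred. The segment test and the deletion search were tested on simulated data. The search for 24 bases across the join, the CDR3s read behind it and a crossed block were added after seeing the data. Positions are from RefSeq, GRCm38.p6, in which 9 of 9 copies were found.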

Additional observations from a re-analysis of the deposited data

How the results depend on the processing

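The difference between genotypes (Tet2/3 DKO minus WT) kept its direction under every alternative with 4 libraries for the family's share of reads, mean TRAJ number, mean CDR3 length, in-frame share and share without a CDR3. The share with a deletion turned to 0.10 percentage points, from -2.11, when clones with tied V hits were left out, which removes all of TRAV6-6. The same step left -0.16 points of the difference of -2.33 in the share without a CDR3. It turned the family's mean TRAJ number against other V segments to -2.71 and its share without a CDR3 against them to -0.96. The step also took clones from the other V segments, where ties held 32.2% to 36.1% of reads. The family's own mean TRAJ number moved little, from 29.46 to 29.07 in WT and from 29.12 to 28.83 in Tet2/3 DKO. Most of that turn therefore lay in the other V segments. Adding the joins read behind the gap turned the in-frame share of the 6 and 7 copies against other V segments from 0.16 to -2.28 points. The 6 copies alone moved: the share of the 7 copies did not change and stayed above other V segments in each library. Leaving out each library in turn gave ranges of -2.72 to 0.65 points for the share of reads, -0.55 to -0.14 for mean TRAJ number, 0.09 to 0.18 amino acids for CDR3 length, -0.22 to 0.69 points for the in-frame share, -3.44 to -1.22 points for the share without a CDR3 and -3.15 to -1.07 points for the share with a deletion. The share of reads turned without Tet2/3 DKO replicate 2, and the in-frame share without WT replicate 1 or Tet2/3 DKO replicate 2.

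The count of member V segments called was 0 in every alternative. The count of TRAJ partners, 1 in edgeR, was 0 with DESeq2, 0 with the replicate block and 0 with each clone counted once, and 0 to 1 when each library was left out, where the lone library of a genotype is assumed to vary like the others. Same-numbered libraries share only a number: their deviations correlated at -0.10 over 96 V segments and -0.16 over 43 TRAJ segments. With the replicate block the log2 fold change of TRAJ31 was -0.29 and its adjusted p 0.394. With the pairing crossed, 2 TRAJ segments were called, TRAJ17 and TRAJ31. The adjusted p of TRAJ31 ranged from 1.19e-05 to 0.990 over all alternatives. Small log2 fold changes turned in sign without any call. Counting each clone once gave -0.061 for TRAV6-5, -0.012 for TRAV6N-5, 0.036 for TRAV6-7-DV9 and -0.041 for TRAJ27. Leaving out the 10 most abundant clones gave -0.084 for TRAV6-5 and 0.0024 for TRAV6-7-DV9. Leaving out tied V hits gave -0.0039 for TRAV6-5, and TMM factors gave -0.0035 for TRAJ23. Leaving out each library gave -0.0072 to 0.075 for TRAV6-5, -0.51 to 0.13 for TRAV6-6, -0.25 to 0.16 for TRAV6-7-DV9, -0.22 to 0.13 for TRAV6D-7 and -0.056 to 0.13 for TRAJ23. The signs turned without WT replicate 2 in TRAV6-5, TRAV6-7-DV9 and TRAV6D-7, without Tet2/3 DKO replicate 2 in TRAV6-6 and TRAV6-7-DV9, and without Tet2/3 DKO replicate 1 in TRAJ23. The cause of these turns was not tested. With 2 libraries a genotype no exact test could reach 0.05.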

Other observations

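A second sequence of TRAV6D-7 recurred in all 4 libraries. It differed from the most abundant one by A116G, counted from the first base of FR1. It held 77 and 191 reads in WT, or 1.71% and 2.65% of the TRAV6D-7 reads that covered FR1 to FR3, and 118 and 146 reads in Tet2/3 DKO, or 2.04% and 1.84%. These reads came from 31, 49, 30 and 42 clones, the largest of 9 reads, so that it did not rest on 1 clone. Of these clones 11, 17, 6 and 13 had the same join as a clone of the most abundant sequence in their library. The source of the variant was not tested.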
